A study of Mus musculus with 12 samples.

Results

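Immediate early genes are switched on by a stimulus before any new protein has to be made, and 9 of them, together with the antiproliferative gene Btg2, were followed here in mouse LT-HSCs, the long-term stem cells of the bone marrow that sustain blood production. The 10 genes were taken by name, as Fos, Fosb, Jun, Junb, Egr1, Nr4a1, Ier2, Dusp1, Klf6 and Btg2, from 23472 genes in the count table. They were chosen with earlier results of these data known. All 10 were in the table, and 9 of them were among the 13184 genes that passed the filter on low counts. Fosb did not pass it and is described by its counts.

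Poly-A RNA had been sequenced from 12 libraries of C57BL/6 bone marrow. The 6 wt libraries came from animals labelled cre negative and the 6 libraries labelled Jak1 KO from animals labelled cre positive. Both groups had received poly(I:C), a double-stranded RNA used to switch on cre, in 4 doses given 4 to 6 weeks before the marrow was taken. Cre and a Jak1 deletion therefore cannot be told apart, and the labels name neither the cre promoter nor the deleted exons. Each genotype held 3 libraries of a VD name series (replicates 1 to 3) and 3 of a ZL name series (replicates 4 to 6). The descriptions of the VD libraries carry the prefix MXminus or MXplus; what the name series stand for is not said. Nor is it said whether each library had its own animals, so the p-values rest on a library-to-library spread that may be technical.

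Immediate early genes are induced within minutes by growth factors, cytokines, stress and the handling of tissue, mainly through MAP kinases acting on serum response factor with its ETS partners and on CREB. Their mRNAs are short-lived. Fos and Jun proteins pair into the AP-1 transcription factor, Egr1 is a zinc finger factor, Nr4a1 an orphan nuclear receptor, and Dusp1 a phosphatase that turns MAP kinases off again. Btg2 slows the cell cycle, recruits the CCR4-NOT deadenylase to mRNAs and is a p53 target. Egr1, Nr4a1 and Junb are known as brakes on the proliferation of haematopoietic stem cells.

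RefSeq promoter entries (GRCm38.p6) were matched for 8 of the 10 genes; Egr1 and Ier2 were not matched. The 250 bases before the transcription start are shown for 4 genes, read 5′ to 3′ on the strand of the gene. Btg2 is shown because it came nearest to a call between genotypes, and Dusp1, Junb and Fos because their deviations between libraries had correlations of the opposite sign to Btg2. Capitals mark matches, on either strand, to the cAMP response element TGACGTCA, to its core TGACG, which the full element contains, or to TATAAA.
Btg2, chr1:134079156-134079405, minus strand: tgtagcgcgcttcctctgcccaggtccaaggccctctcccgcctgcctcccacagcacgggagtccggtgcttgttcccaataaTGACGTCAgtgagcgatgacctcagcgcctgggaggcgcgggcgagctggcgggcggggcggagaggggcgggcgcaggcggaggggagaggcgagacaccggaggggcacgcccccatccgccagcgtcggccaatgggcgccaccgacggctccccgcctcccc
Dusp1, chr17:26508473-26508722, minus strand: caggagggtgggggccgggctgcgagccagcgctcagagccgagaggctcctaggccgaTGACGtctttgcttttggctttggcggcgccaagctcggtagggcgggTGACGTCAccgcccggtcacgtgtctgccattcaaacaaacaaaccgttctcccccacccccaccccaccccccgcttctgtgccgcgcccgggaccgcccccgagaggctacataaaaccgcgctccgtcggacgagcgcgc
Junb, chr8:84978749-84978998, minus strand: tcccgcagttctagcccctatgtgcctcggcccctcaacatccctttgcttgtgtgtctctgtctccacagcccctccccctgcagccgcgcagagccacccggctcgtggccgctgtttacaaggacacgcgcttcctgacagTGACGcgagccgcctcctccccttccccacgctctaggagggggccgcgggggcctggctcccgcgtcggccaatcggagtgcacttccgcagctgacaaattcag
Fos, chr12:85473640-85473889, plus strand: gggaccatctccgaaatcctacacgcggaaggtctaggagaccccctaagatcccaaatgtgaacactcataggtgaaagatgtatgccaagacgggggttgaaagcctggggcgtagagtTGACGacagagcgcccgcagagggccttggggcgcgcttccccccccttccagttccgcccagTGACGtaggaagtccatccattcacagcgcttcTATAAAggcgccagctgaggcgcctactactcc

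The full element TGACGTCA stood in the promoters of Btg2 and Dusp1, that is 2 of the 8, against 1.55% of all 32851 promoter entries cut to the same 250 bases. The core TGACG stood in 6 of the 8 (Fos, Fosb, Junb, Nr4a1, Dusp1 and Btg2), against 17.8% of all entries. The core began 66 bases before the start of Fos, and the Fos promoter alone of the 8 held TATAAA (12.4% of all entries), 33 bases before its start. The EGR site GCGGGGGCG stood in the Fosb and Nr4a1 promoters (2.57% of all entries), whose entries belong to starts inside the full span of the gene given below. No match was found in the 8 windows for the CArG box (1.47%), the AP-1 site TGANTCA (6.75%) or the STAT site TTCNNNGAA (7.02%). These are matches of letters in a short window and say nothing of binding. Bases further from the start were not searched, nor were the promoters of Egr1 and Ier2, so a site may lie there.

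Total counts per library ranged from 8989965 to 28701855. The 12 stem cell markers on the list, Mecom, Procr, Hlf and Slamf1 among them, were all tested and summed to 2397 to 5239 normalised CPM (reads of a gene scaled to the library's total, with TMM factors). Jak1 itself stood at 321 to 435 CPM in wt and at 246 to 727.5 CPM in the libraries labelled Jak1 KO, a gene-level count that does not check the labels. The name sets stood apart. Of the counts in VD, 14.8% to 22.6% lay on the ribosomal precursor gene Rn45s, against 0.511% to 0.950% in ZL, and the 8 neutrophil markers in the table summed to 548 to 1421 CPM in VD and to 95.4 to 260 CPM in ZL, with none at 0. In deviations from the set mean, log2 CPM fell with exon length in Jak1 KO 4 (Spearman -0.52 across genes) and rose with it in wt 6 (0.38) and Jak1 KO 6 (0.45), the 3 ZL libraries that stood furthest apart.

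Per kilobase of exon, Ier2 was the most abundant of the 10 genes and Fosb the least. Ier2, a small nuclear protein gene, was at 59.5 ± 41.4 CPM per kilobase (SD, n = 12), and its lowest library (30.1) lay above the highest library of the next gene, Junb (23.5). Junb at 15.2 ± 5.50 and Klf6 at 12.5 ± 4.47 differed by less than their spread. So did Egr1, Dusp1 and Btg2, at 7.81 ± 4.85, 7.66 ± 4.45 and 7.16 ± 3.49 CPM per kilobase. Jun followed at 3.57 ± 2.00 and Nr4a1 at 2.64 ± 1.22, again within their spread. Fos stood at 0.965 ± 0.990 CPM per kilobase and Fosb at 0.0586. The prototype immediate early gene Fos was thus among the least abundant of the set in these cells, with 5 to 174 counts per library.

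**Figure D1:**
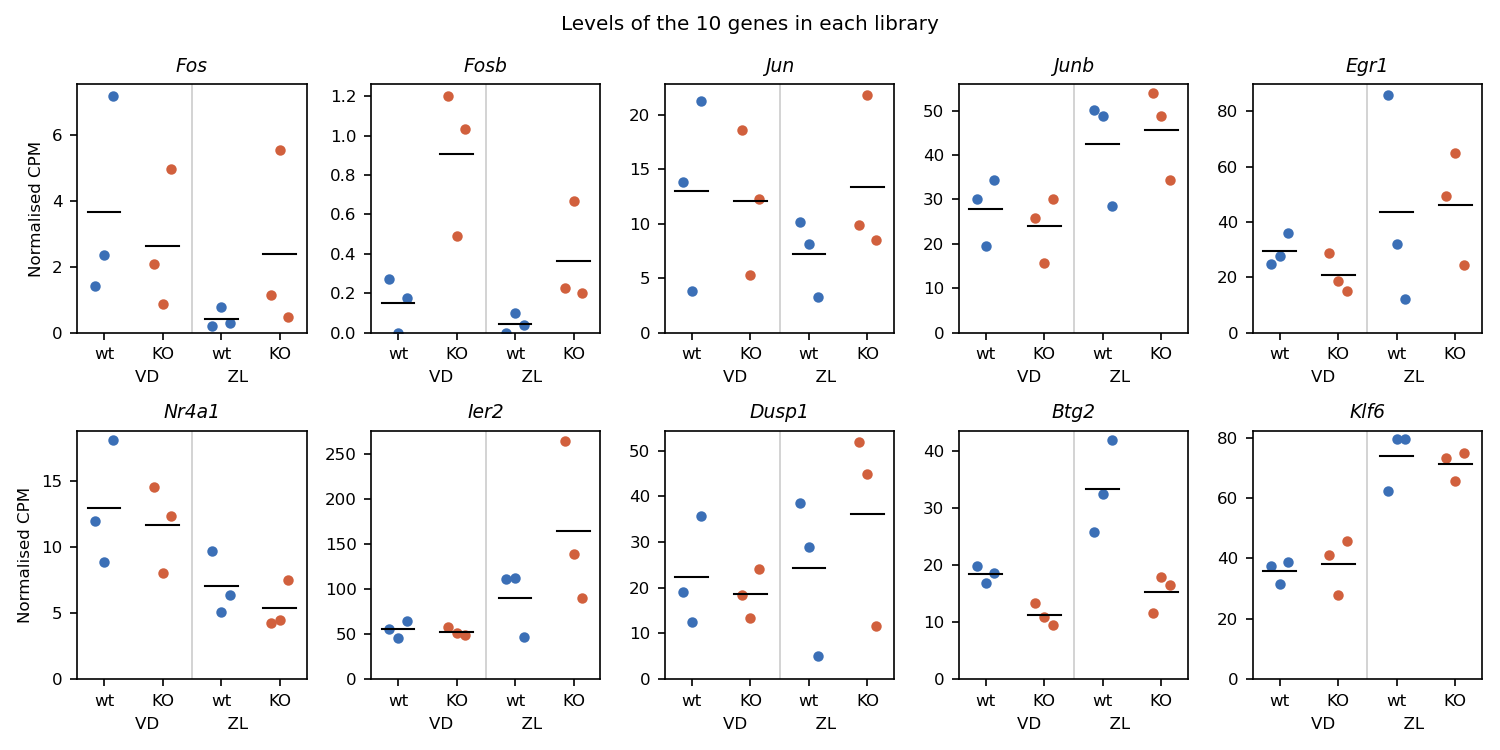
Normalised CPM (vertical axes, linear, from 0) of the 10 genes in each of 12 libraries, grouped by name set and genotype; points are libraries (blue wt, orange labelled Jak1 KO) and bars are means of 3. Btg2 shows 3 lower KO points in both sets, Fosb 3 higher ones at very low levels, and Klf6 a step between VD and ZL.

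The comparison of genotypes asked which of these transcripts differ with the Jak1 label of the cells. Btg2 came nearest to a call and lay lower in the libraries labelled Jak1 KO. The other 8 tested genes had overlapping genotypes in both sets and did not pass. With edgeR's quasi-likelihood test, 0 of the 9 passed an adjusted p of 0.05, where 0.440% of all tested genes passed. At an unadjusted p under 0.05 there was 1, Btg2, against 5.06% of all tested genes. DESeq2 and limma-voom each called 1 of the 9, again Btg2, where they called 126 and 220 of all 13184 tested genes. The median log2 difference of the 9 was 0.018, beside -0.0060 over all tested genes, and 4 of the 9 lay below 0. On simulated counts with these library sizes and 13184 genes, the same test recovered 43 of 100 genes changed by 1 on the log2 scale and 92 of 100 changed by 2. The changed genes were drawn at random from all tested genes, and far fewer differed between sets than in the data. These shares are therefore not the chance of a call for the 9 genes, whose SE ran from 0.15 (Klf6) to 0.81 (Fos).

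Btg2 lies on chromosome 1 from 134074865 to 134079155 on the minus strand (RefSeq positions of GRCm38.p6 here and for the other genes). In VD it stood at 19.8, 16.9 and 18.7 CPM in wt 1 to 3 and at 13.4, 10.98 and 9.47 CPM in Jak1 KO 1 to 3. In ZL it stood at 25.9, 32.5 and 42.0 CPM in wt 4 to 6 and at 11.6, 18.0 and 16.5 CPM in Jak1 KO 4 to 6. Within either set, the highest Jak1 KO value was below the lowest wt value, an arrangement found in this direction for 0.963% of all tested genes. The mean over 6 wt libraries was 25.97 ± 9.70 CPM, against 13.3 ± 3.31 CPM over the 6 labelled Jak1 KO (SD), which the model put at 1.89-fold lower (log2 difference -0.92, SE 0.19, 95% interval -1.32 to -0.52, edgeR adjusted p = 0.0521).

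The same direction stood in both name sets for Btg2, at -0.67 (SE 0.22) in VD alone and -1.12 (SE 0.32) in ZL alone. Neither set passed on its own (edgeR adjusted p = 0.181 and 0.946). The interaction of genotype and set was -0.41 (95% interval -1.21 to 0.40, adjusted p = 0.975). The adjusted p for Btg2 over all 12 libraries crossed the threshold under 4 of 23 alternatives: 0.0449 with DESeq2's size factors, 0.000116 with DESeq2's test, 0.00550 with limma-voom and 0.0363 with replicate number as a block. It stayed above the threshold, at 0.0547 to 0.163, whichever of the 12 libraries was left out, and the log2 difference ranged from -1.01 to -0.78. Without Jak1 KO 4, Jak1 KO 6 and wt 6 together it was -0.67 (adjusted p = 0.130).

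Summed megakaryocyte and platelet markers separated the genotypes in the direction of Btg2. The 9 markers on that list, Pf4, Itga2b and Vwf among them, summed to 1075 to 1450 CPM in wt and to 490 to 847 CPM in the libraries labelled Jak1 KO, so that the groups did not overlap. Pf4, Itga2b and Vwf made up most of the sum. Itga2b alone of the 8 tested passed (log2 difference -1.08, edgeR adjusted p = 0.0247), where 0.440% of all tested genes passed. Gp9 stood at 51.5 CPM in wt and 52.0 CPM in the libraries labelled Jak1 KO, and Ppbp at 10.7 and 12.3 CPM, both singled out after their values were seen. In the model with name set, all 8 tested markers lay below 0, as 51.0% of all tested genes did. Gp9 was at -0.083 and Ppbp at -0.15. Unlike Btg2, the wt sums were not higher in ZL (1075 to 1389 CPM) than in VD (1144 to 1450 CPM). None of the 9 was at 0 in all libraries, and Gp6 alone had a mean under 1 CPM. Their part in the Btg2 difference was not tested. Summed markers of other blood cells overlapped between genotypes, from 30.3 to 146 CPM for B cells, 25.5 to 195 CPM for T and NK cells and 871 to 5649 CPM for erythroid cells, each highest in Jak1 KO 4. On average 1 gene made up most of each sum, Cd79b (48.1 CPM), Nkg7 (56.5 CPM) and Car2 (2076 CPM). Means under 1 CPM were found for 5 of 8 B cell, 5 of 8 T and NK cell and 4 of 12 erythroid markers. Of the erythroid markers, 3 were at 0 in all libraries. In bulk samples, fewer cells of a type and less RNA per cell cannot be told apart.

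Of 9482 named genes with a mean of at least 10 CPM, the 3 whose log2 CPM followed Btg2 most closely over the 12 libraries were Ifit1, Slc14a1 and F2r. Ifit1, an interferon-induced gene, had a Pearson correlation of 0.96 with Btg2. For Slc14a1, a urea transporter, it was 0.95, and for the thrombin receptor gene F2r 0.94. All 3 share with Btg2 a lower level in the libraries labelled Jak1 KO (log2 differences of -1.51, -0.99 and -0.98) and a higher one in ZL (1.28, 0.69 and 1.08). After set and genotype were removed, the correlations with Btg2 were 0.75, 0.69 and 0.75. Because the 3 genes were picked by correlation with Btg2, the shared directions follow from that choice. The correlations after removal come from the same libraries and are raised by it too. The 12 points share library, depth and the same difference between sets.

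**Figure D2:**
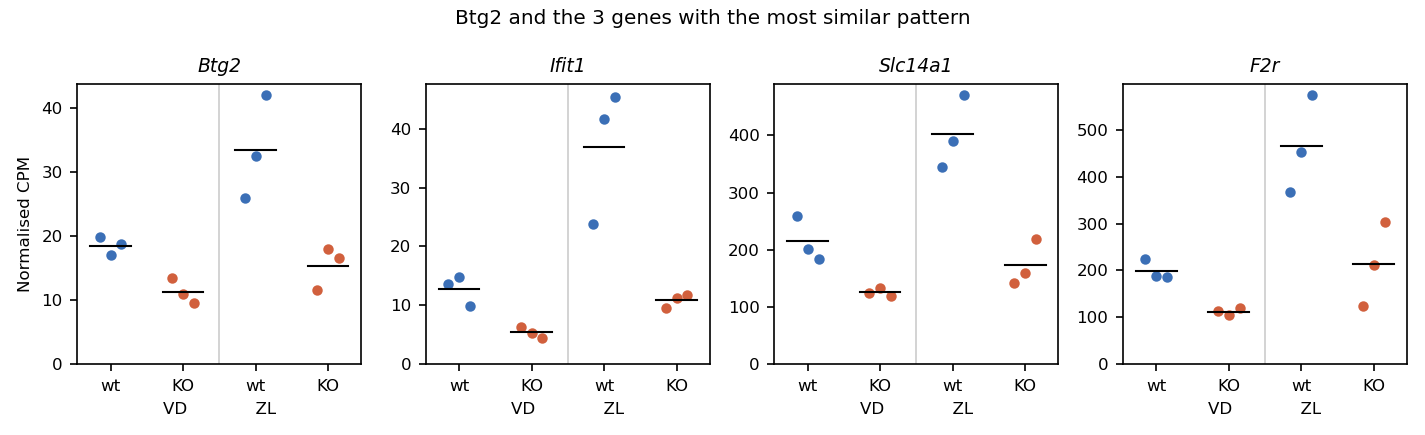
Normalised CPM (vertical axes, linear, from 0) of Btg2 and of the 3 genes with the highest correlation to it over 12 libraries; points are libraries, bars are means of 3. In all 4 panels the orange points of a set lie below its blue points, and the ZL wt libraries are the highest.

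Fosb, the AP-1 subunit closest to Fos, on chromosome 7 from 19302696 to 19310118, was counted too rarely for the test, and more of its reads came from the libraries labelled Jak1 KO. In VD it had 4, 0 and 2 counts in wt 1 to 3 and 15, 4 and 11 counts in Jak1 KO 1 to 3. In ZL it had 0, 3 and 1 counts in wt 4 to 6 and 3, 21 and 5 counts in Jak1 KO 4 to 6. That makes 10 counts in all wt libraries and 59 in all those labelled Jak1 KO, or 0.0972 ± 0.109 and 0.635 ± 0.413 CPM (SD, n = 6 each). In CPM the lowest Jak1 KO value was above the highest wt value in both sets, which was so for 0.287% of the 21232 genes with a count. In the fit without a filter, the log2 difference was 2.69 (SE 0.93), with an unadjusted p of 0.00805 and an edgeR adjusted p of 0.783, so Fosb did not pass.

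Fos, on chromosome 12 from 85473890 to 85477274, varied more between libraries of a group than any other tested gene of the set. It stood at 1.42, 2.36 and 7.17 CPM in the VD wt libraries and at 2.08, 0.854 and 4.97 CPM in the VD libraries labelled Jak1 KO. In ZL it stood at 0.194, 0.765 and 0.296 CPM in wt and at 1.13, 5.52 and 0.478 CPM in the libraries labelled Jak1 KO. The highest and the lowest library differed 36.9-fold, and the genotypes overlapped in both sets.

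The log2 difference between genotypes for Fos was 0.98 (95% interval -0.75 to 2.71, edgeR adjusted p = 0.945). It was -0.42 in VD alone and 2.52 in ZL alone, where Jak1 KO 5, with 174 counts, was the high library. The interaction of 2.95 (SE 1.33) had an edgeR adjusted p of 0.975. Its unadjusted p was under 0.05, for 1 of the 9, where 1.38% of all tested genes were. At an adjusted p of 0.05, both edgeR and DESeq2 called 0 of the 9 interactions, where edgeR called 0% and DESeq2 1 gene of all those tested.

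In the sets taken alone, edgeR and DESeq2 called 0 of the 9 genes in VD and 0 in ZL. Over all genes edgeR called 1.15% in VD and 0% in ZL, while DESeq2 called 403 genes in VD and 45 in ZL. At an unadjusted p under 0.05 edgeR gave 1 of the 9 in VD, Btg2, where 13.6% of all tested genes were. In ZL it gave 2, Fos and Btg2, where 1.63% of all tested genes were.

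Jun, the main partner of Fos in AP-1, lies on chromosome 4 from 95049036 to 95052222. It ranged from 3.30 to 21.2 CPM in wt and from 5.25 to 21.8 CPM in the libraries labelled Jak1 KO, nearly the same span (log2 difference 0.41, 95% interval -0.56 to 1.37). Junb, an AP-1 subunit on chromosome 8 from 84976909 to 84978748, had overlapping groups too, from 19.4 to 50.2 CPM in wt and from 15.7 to 53.9 CPM in the libraries labelled Jak1 KO, and its interval ran from -0.54 to 0.42. In the GENCODE annotation the Jun locus overlaps an antisense transcript, and the exons of Junb overlap those of Prdx2 by 173 bases. The GENCODE span of Junb begins at 84974484, outside the RefSeq span above. Reads in such overlaps cannot be assigned without a stated strand. Whether the overlaps stood in the annotation used for counting is not known.

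The interval for Egr1, from 12.2 to 86.1 CPM in wt and from 15.2 to 65.0 CPM in the libraries labelled Jak1 KO, was -1.02 to 0.63. The orphan receptor gene Nr4a1, on chromosome 15 from 101253902 to 101274795, stood at 10.004 ± 4.67 CPM in wt and 8.53 ± 4.18 CPM in the libraries labelled Jak1 KO (SD, n = 6 each), a log2 difference of -0.26 (SE 0.26). Ier2, on chromosome 8 from 84661331 to 84662852, stood at 72.6 ± 31.0 and 108.5 ± 83.6 CPM, with the interval from -0.22 to 1.03. For the phosphatase gene Dusp1, on chromosome 17 from 26505591 to 26508472, the means were 23.3 ± 13.4 and 27.4 ± 17.0 CPM and the interval -0.84 to 1.16. None of these 4 passed (edgeR adjusted p of 0.945 to 0.966), and each interval spans 0.

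Klf6, a zinc finger factor of the Krüppel-like family, lies on chromosome 13 from 5861489 to 5870393. It stood at 54.8 ± 21.8 CPM in wt and 54.7 ± 19.3 CPM in the libraries labelled Jak1 KO. Its interval of -0.31 to 0.35 was the narrowest of the 9, and the genotypes overlapped within each set.

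**Figure D3:**
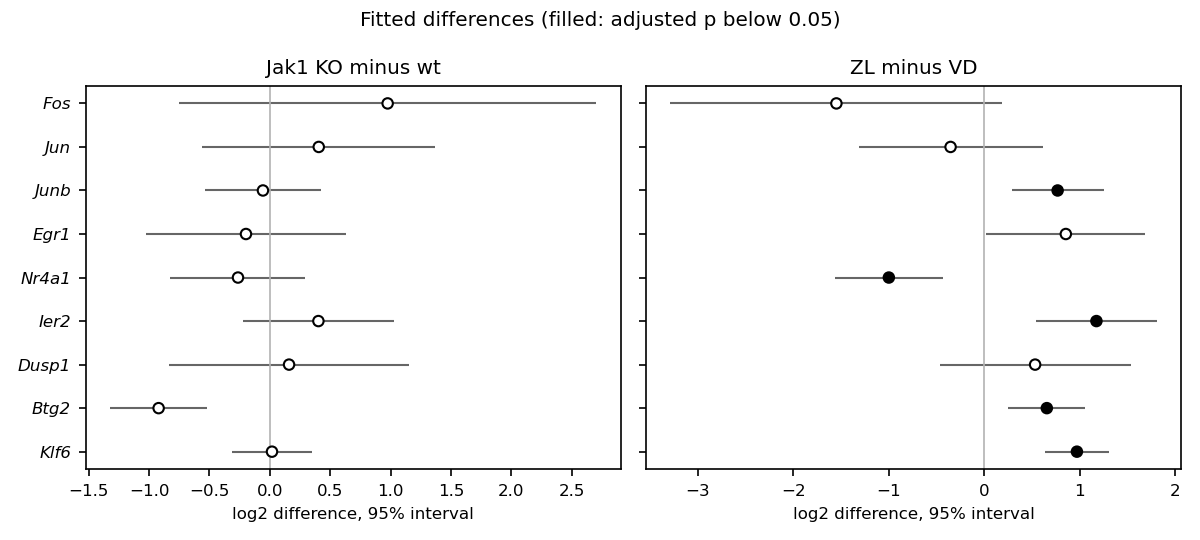
Log2 differences of the 9 tested genes (points) with 95% intervals (lines), for Jak1 KO minus wt and for ZL minus VD, from the model with both terms. For genotype the Btg2 interval alone lies wholly below 0; for name set those of Klf6, Ier2, Junb, Btg2 and Egr1 lie above 0 and that of Nr4a1 below.

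The name sets differed for more of these genes than the genotypes did. Klf6, Ier2, Junb and Btg2 rose in ZL against VD, 4 of the 9, where 35.4% of all tested genes passed in that direction. Nr4a1 fell, 1 of the 9, where 24.5% of all tested genes did. The median log2 difference of the 9 was 0.65, beside 0.20 over all tested genes, and the latter moved to 0.058 with DESeq2's size factors, under which the same number of the 9, 5, passed. Because most genes differed between the sets, these shares single out no group.

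Klf6 was the only one of the 9 whose 6 ZL libraries all lay above its 6 VD libraries, as 22.6% of all tested genes did. In VD it ranged from 27.7 to 45.7 CPM and in ZL from 62.3 to 79.6 CPM. The log2 difference was 0.97 (SE 0.15, edgeR adjusted p = 0.000121).

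Ier2 was tightly grouped in VD, from 45.9 to 64.4 CPM. In ZL it stood at 111.1, 112.3 and 46.6 CPM in wt 4 to 6 and at 264.4, 138.7 and 90.5 CPM in Jak1 KO 4 to 6. The single overlap came from wt 6, and the rise was 1.17 (SE 0.29, edgeR adjusted p = 0.00358). Junb stood at 25.9 ± 7.09 CPM in VD and 44.1 ± 10.2 CPM in ZL (SD, n = 6 each), a rise of 0.77 (SE 0.22, edgeR adjusted p = 0.00903). Without Jak1 KO 4 the Junb difference was 0.54 and did not pass (adjusted p = 0.0592).

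Btg2 rose by 0.65 between the sets (SE 0.19, edgeR adjusted p = 0.00799), with all 3 ZL wt libraries above all VD wt libraries and the libraries labelled Jak1 KO overlapping. Nr4a1 went the other way. It stood at 12.01, 8.86 and 18.1 CPM in the VD wt libraries and at 14.6, 8.05 and 12.4 CPM in the VD libraries labelled Jak1 KO. In ZL it stood at 9.67, 5.06 and 6.33 CPM in wt and at 4.23, 4.44 and 7.53 CPM in the libraries labelled Jak1 KO. The ZL libraries were lower with an overlap among wt, and Nr4a1 fell by 1.00 (SE 0.26, edgeR adjusted p = 0.00478).

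The remaining 4 tested genes did not pass between sets, and for 3 of them that rested on few libraries. Egr1 stood at 25.2 ± 7.42 CPM in VD and 44.9 ± 27.4 CPM in ZL, a difference of 0.85 (edgeR adjusted p = 0.0711) that passed without wt 6 (1.09, adjusted p = 0.00539) and without Jak1 KO 6 (0.97, adjusted p = 0.0426). Fos gave -1.55 (SE 0.81, edgeR adjusted p = 0.114) and passed without Jak1 KO 5, at -2.49, and with DESeq2, at -1.75. All 3 ZL wt libraries of Fos lay below all 3 VD wt libraries. Dusp1 gave 0.53 (SE 0.47) and passed, at 0.78, only with Jak1 KO 4, Jak1 KO 6 and wt 6 all left out. Jun gave -0.35 (SE 0.45) and passed in none of the fits.

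Exon length moved with the difference between sets. Across 13072 tested genes the ZL minus VD difference had a Spearman correlation of -0.36 with exon length, and these genes are short: the median exon length of the 9 tested genes and Fosb was 3250 bases, against 4364.5 over all tested genes. With an offset for the length trend of each library, 3 of the 9 passed, where 56.3% of all tested genes did. Klf6 (0.87) and Nr4a1 (-1.30) remained, Fos joined them (-2.07, edgeR adjusted p = 0.0416), and Btg2 (0.23), Junb (0.23) and Ier2 (0.44) no longer passed. The summed neutrophil markers and Rn45s, given above, were also lower in ZL. Of the 7 neutrophil markers tested, 6 lay below 0, as 5628 of all 13184 tested genes did. Prtn3 did not, at 118 CPM in VD and 143 CPM in ZL. The part of these markers and of Rn45s in the differences was not tested.

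After set and genotype were removed, 25 of the 36 pairs of the 9 genes had a Pearson correlation above 0 over the 12 libraries, with a median of 0.32 and a lowest value of -0.70. The spread that remained was widest for Fos (SD of 1.20 on the log2 scale), then Dusp1 (0.95), Jun (0.85) and Egr1 (0.75), and narrowest for Btg2 (0.26) and Klf6 (0.20). Among Fos, Jun, Junb, Egr1, Ier2 and Dusp1, a grouping made after these values were seen, the 15 correlations ranged from 0.34 to 0.88. Those of Btg2 ranged from -0.70 to -0.061 with these 6 and were 0.11 with Nr4a1 and 0.21 with Klf6. The 12 points share library and depth, and 3 of them carry the length trends described above.

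Single libraries stood out in these deviations. In wt 3, 8 of the 9 genes lay above their fitted level, by 0.67 on average on the log2 scale, with Fos at 1.82 and Jun at 1.24. In Jak1 KO 5, 7 of the 9 lay above it, with Fos at 2.37. In wt 6 the mean was -0.75, with Dusp1 at -2.04, Egr1 at -1.63 and Ier2 at -1.06, while Btg2 was at 0.45. Jak1 KO 4 was the reverse, with Ier2 at 1.05, Dusp1 at 1.02 and Btg2 at -0.47. High and low libraries occurred in both genotypes.

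**Figure D4:**
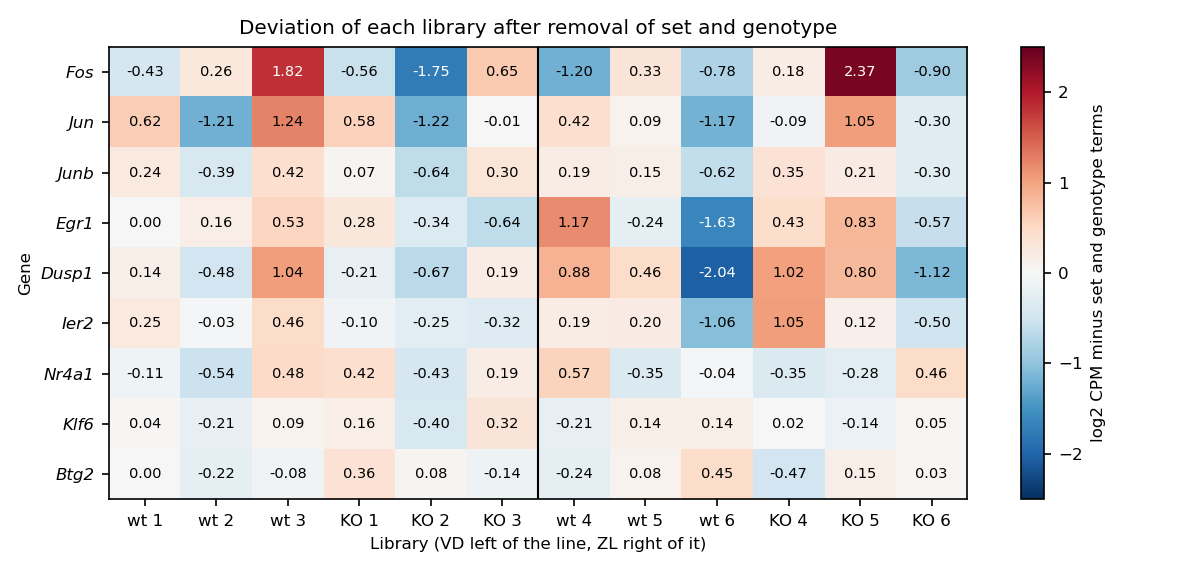
Deviation of each of the 9 tested genes from its fitted level (log2 CPM after removal of name set and genotype; colour scale, red above and blue below 0) in each of 12 libraries. The wt 6 and Jak1 KO 2 columns are mostly below 0 and the wt 3 and Jak1 KO 5 columns mostly above, while Btg2 is above 0 in wt 6 and below it in Jak1 KO 4.

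The genes outside the set whose log2 CPM most resembled the scaled mean of the tested members over the 12 libraries were Pcgf5 (Pearson correlation 0.87), Fbxo4 (0.85), Fam174b (0.85), Acsl3 (0.85) and Rab22a (0.85). Pcgf5 is a Polycomb ring finger gene and Fbxo4 an F-box gene of ubiquitin ligases. Their deviations correlated with those of Btg2 at -0.63 to -0.45 once set and genotype were removed. The genes were picked for likeness to a mean that holds 6 genes whose own deviations correlated below 0 with Btg2. The sign of these values therefore follows in part from that choice, in the same libraries.

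Of 25 listed genes for other immediate early transcription factors 16 were tested. Of these, edgeR and DESeq2 called 0 between genotypes, where edgeR called 0.440% of all tested genes. An unadjusted p under 0.05 was found for 1, Id1, beside 5.06% of all tested genes. The inhibitor of differentiation gene Id1 stood at 1.79 CPM in wt and 3.71 CPM in the libraries labelled Jak1 KO (log2 difference 1.12, edgeR adjusted p = 0.843), and the small Maf factor Mafk differed by -0.33. Their median was -0.17. Between sets, 4 rose and 4 fell, where 35.4% of all tested genes rose and 24.5% fell. The clock gene Per1 fell by 3.31 and the AP-1 subunit gene Fosl2 by 3.14, while the proto-oncogene Myc rose by 1.31 and Klf10 by 1.27.

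Of 36 listed effector and feedback genes of the same early response 32 were tested. Of these, edgeR and DESeq2 called 0 between genotypes, where edgeR called 0.440% of all tested genes. An unadjusted p under 0.05 was found for 6, beside the 5.06% of all tested genes. The polo-like kinase gene Plk2 differed by 0.85 (SE 0.30, edgeR adjusted p = 0.674) and the stress sensor Gadd45a by 0.89 (adjusted p = 0.818). Limma-voom called 1, the MAP kinase phosphatase Dusp4. Between sets, 12 rose and 7 fell, where 35.4% and 24.5% of all tested genes did. The small GTPase genes moved apart, Gem rising by 2.11 and Rhob falling by 2.67. The ERK phosphatase Dusp6 rose by 1.25, and the mRNA decay factor Zfp36l1 fell by 1.44.

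No relative of Btg2 passed between genotypes. Of 18 listed genes of the BTG/TOB family, the CCR4-NOT complex and p53 targets, 16 were tested. With edgeR or DESeq2 0 passed between genotypes, where edgeR called 0.440% of all tested genes. An unadjusted p under 0.05 was found for 0, beside 5.06% of all tested genes, and 8 lay below 0. Btg1, the closest relative of Btg2, differed by 0.30 and Tob1 by 0.29, both higher on average in the libraries labelled Jak1 KO (edgeR adjusted p = 0.945 for each), and the p53 target Phlda3 by 0.62. Between sets 6 rose and 2 fell, beside 35.4% and 24.5% of all tested genes. The deadenylase genes Cnot8 and Cnot7 each rose by 0.97, the stress-induced Sesn1 by 0.99 and the cyclin gene Ccng1 by 1.13.

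Of the 23 upstream kinases and factors, all tested, edgeR and DESeq2 called 0 between genotypes, where edgeR called 0.440% of all tested genes. An unadjusted p under 0.05 was found for 0, beside 5.06% of all tested genes. The smallest p belonged to the p38 pathway genes Map2k6 (0.35) and Mapk14 (-0.29). Between sets 8 fell and 5 rose, beside 24.5% and 35.4% of all tested genes. The JNK gene Mapk8 fell by 1.67, the serum response factor partner gene Elk4 by 1.64 and the ERK gene Mapk3 by 1.16, and Map2k3 rose by 0.89.

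Heat shock genes are a second group that tissue handling can induce. In the model with name set, the genotype difference lay below 0 for all 13 tested of 15 listed. Their median was -0.20, and 51.0% of all tested genes lay below 0. Several of the 13 were close to 0, such as Hsp90ab1 at -0.015 and Dnajb4 at -0.037, singled out after their values were seen. The mean of Dnajb4 was not lower, at 67.7 CPM in wt and 67.8 CPM in the libraries labelled Jak1 KO. DESeq2's size factors moved the median of all genes from -0.0060 to 0.041, so such signs depend on the scaling. For genotype edgeR and DESeq2 called 0, where edgeR called 0.440% of all tested genes. At an unadjusted p under 0.05 there were 2, beside 5.06% of all tested genes. The endoplasmic reticulum chaperone gene Hspa5 stood at 638 CPM in wt and 444 CPM in the libraries labelled Jak1 KO (log2 difference -0.51, edgeR adjusted p = 0.521), and limma-voom called it. Hsph1 differed by -0.67 (adjusted p = 0.929). Between sets 6 rose and 3 fell, beside 35.4% and 24.5% of all tested genes. Those that rose included Hspa5 at 1.37, Dnajb4 at 0.96, and Hspd1 and Dnajb1 at 0.86 each. The 3 that fell, named after their values were seen, were Hspa1b at -2.58, Bag3 at -0.44 and Hsp90ab1 at -0.38. Hspa1b was rare and uneven, at 3.96 ± 6.14 CPM in VD and 0.580 ± 0.232 CPM in ZL (SD).

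**Figure D5:**
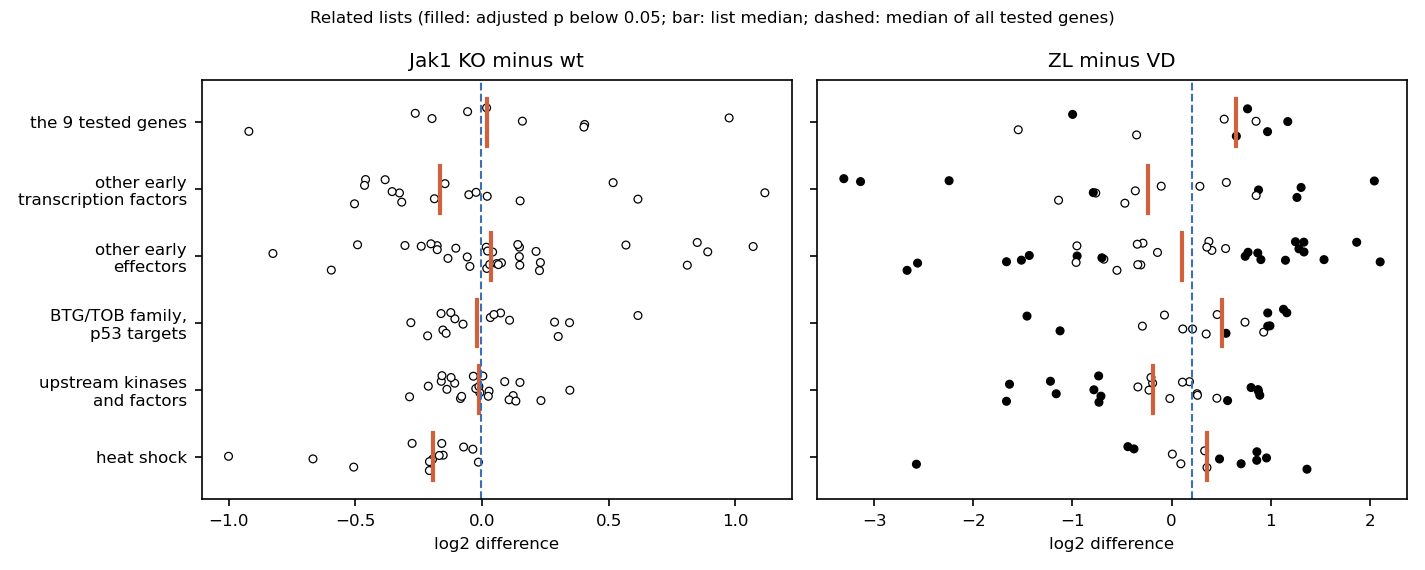
Log2 differences of each tested gene (points) for Jak1 KO minus wt and for ZL minus VD, by gene list, with the list median (line) and filled points for genes past an adjusted p of 0.05. No point is filled for genotype, and every list has filled points on both sides of 0 for name set.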

How the data were processed

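RNA of LT-HSCs was extracted with TRIzol and, per the labels' protocols, sequenced as poly-A TruSeq libraries. The deposited table holds whole-number read counts per gene that the authors did not normalise. Per the submitters' processing notes, STAR 2.3.0e, featureCounts and Subread were used with mm10. The remaining versions, the gene annotation and strandedness were not given in the sources used here. Columns were matched to samples through the descriptions. The 10 genes and all lists were chosen with earlier results of these data known.

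The analysis ran in R 4.3.3 and edgeR 4.0.16 with filterByExpr on genotype, TMM scaling, a model with name set and genotype, and the quasi-likelihood F test, with Benjamini-Hochberg adjustment over all 13184 tested genes and a threshold of 0.05. SE was the log2 difference over the square root of F. Interaction, each set alone, DESeq2 1.42.0, limma-voom 3.58.1 with quality weights, other scalings and filters, a replicate block, an exon length offset and left-out libraries were alternatives. Log2 CPM used a prior count of 2, and CPM used TMM-scaled totals. Lists were described by counts and medians. The text names all 10 genes, the genes of each list with the smallest p (4, or 2 where none passed, all averaging at least 1 CPM), and the 5 and 3 genes most like the mean of the 9 tested genes and Btg2. Exon lengths came from GENCODE and RefSeq for 23097 of the 23472 symbols, 1219 of them matched as older symbols. No 2 libraries were near-identical in their counts (lowest chi-square per degree of freedom 13.8). Btg1, Dusp4 and the singled-out markers and heat shock genes were named after their values were seen. The test was tried on simulated data.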

Additional observations from a re-analysis of the deposited data

How the results depend on the processing

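Between genotypes, 58 genes passed with edgeR. DESeq2 called 126, limma-voom 220, a model without the set term 14, and the fit without Jak1 KO 4, Jak1 KO 6 and wt 6 called 96; fits that left out 1 library called 39 to 77. Of the 9 genes described, 1 instead of 0, Btg2, passed under DESeq2's size factors, DESeq2's test, limma-voom, the replicate block (adjusted p = 0.0363) and an adjusted p of 0.1. Without the set term its adjusted p was 0.802, and without those 3 libraries it was 0.130 at a log2 difference of -0.67. Between sets, 3 instead of 5 of the 9 passed with the length offset, 4 to 6 when 1 library was left out, and 7 without the 3 libraries, where Egr1 and Dusp1 passed too. Over all genes 7905 of 13184 passed, 54.9% to 62.5% when 1 library was left out and 64.9% without the 3. Fos also passed between sets with DESeq2 (-1.75) and Egr1 with limma-voom (0.72). Genotype differences near 0 changed sign: Egr1 to 0.044 and Klf6 to -0.011 with limma-voom, Klf6 to -0.0040 without the set term, Junb to 0.0041 with Rn45s left out and Dusp1 to -0.0023 without the 3 libraries. With 1 library left out, Klf6 ranged from -0.057 to 0.091, Junb from -0.17 to 0.059, Egr1 from -0.43 to 0.18 and Dusp1 from -0.11 to 0.43. Replicate numbers are not stated to pair samples: deviations of same-numbered libraries correlated at 0.043 to 0.67, and 3 of 6 numbers correlated best with their own. The replicate block gave 72 calls over all genes. Fosb had 0 to 21 counts per library, so a difference in it is hard to detect at this depth. The cause of these changes was not tested.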
